A study of Mus musculus with 6 samples.

Results

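The genes described here are the signals that drive the formation of osteoclasts and their relatives among the macrophages: the ligand RANKL (*Tnfsf11*), its decoy receptor osteoprotegerin (*Tnfrsf11b*), its receptor RANK (*Tnfrsf11a*), the growth factors CSF1 (*Csf1*) and IL34 (*Il34*), and the receptor that both growth factors share (*Csf1r*). They were found by gene name in each of the 6 deposited tables, and the values of features that share a name were summed. By name, 5 of the 6 genes were found among 48733 named genes. *Csf1* carries no name in these tables, but 1 unnamed feature has exactly the start, end and strand of *Csf1* in RefSeq, and it is reported here as the *Csf1* locus.

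RANKL is displayed or released by osteoblast-lineage cells, osteocytes, hypertrophic chondrocytes and activated lymphocytes. It binds RANK on precursors of the monocyte and macrophage lineage and drives their fusion into bone-resorbing osteoclasts, while osteoprotegerin, secreted mainly by the osteoblast lineage, binds RANKL and keeps it from RANK. CSF1 and IL34 act through CSF1R to keep those precursors alive and dividing, and CSF1R is also a hallmark of tissue macrophages.

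RNA was sequenced from cortical bone of the femur, with the marrow spun out, and from osteoblasts grown from marrow stromal cells under dexamethasone, beta-glycerophosphate and ascorbic acid, which drive them to mineralise. All libraries came from mice of the inbred Collaborative Cross strain CC016/GeniUnc, and the labels name no altered gene and no agent given to the animals. The age of these mice is not given in the sources used here, and the study's methods name 3 mice. The labels give 3 libraries of bone and 3 of osteoblasts as biological replicates, and the question put to the genes here is whether the signals differed between the tissue and the cultures.

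Values in the text follow replicates 1, 2 and 3 within each label. The labels and the markers of the libraries did not go together. *Hbb-bt*, a hemoglobin gene of red cells, was at 34838 FPKM in bone replicate 3 and at 34268 and 48650 FPKM in osteoblasts replicates 2 and 3, and at 3.43 to 7.05 FPKM in the other 3 libraries, which are bone replicates 1 and 2 with osteoblasts replicate 1 (FPKM: fragments scaled by transcript length and library depth). The feature named *Hbb-bt* runs from 103812524 to 103833723, past the RefSeq end of the gene at 103813923, so its FPKM may hold neighbouring transcripts. The 3 libraries above 1000 FPKM are called hemoglobin-rich and the other 3 hemoglobin-poor, each keeping its deposited label. All 7 neutrophil markers were also higher in the hemoglobin-rich libraries, with a summed level of 14246 to 17226 FPKM against 0.430 to 5.51 FPKM. All 5 B cell markers, summing to 96.2 to 110 FPKM there, were listed at 0 in the other 3. Of the 12112 named genes averaging at least 1 FPKM, 38.4% were higher in each hemoglobin-rich library than in each of the other 3. *Sost*, which defines mature osteocytes, was at 0.176, 0.0661 and 18.8 FPKM under the label bone and at 0.198, 22.7 and 15.8 FPKM under osteoblasts. It was thus near absent from the hemoglobin-poor libraries of both labels. *Dmp1*, a matrix protein gene of osteocytes, ran the other way, at 22.5 to 24.2 FPKM in the hemoglobin-rich libraries and 50.0 to 127 FPKM in the others. Depth was 13565333 to 22584000 aligned pairs per library, so that 3 pairs on 1 kb of transcript give 0.133 to 0.221 FPKM. Features without a name took 71.5% of the FPKM in bone replicate 2 and 65.0% in osteoblasts replicate 1, and 27.4 to 30.7% in the other 4.

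The sequences ahead of the 2 ligand genes are shown because *Tnfsf11* and the *Csf1* locus were the lowest and the highest of the ligands measured. They are the 250 bases before the start of each gene in RefSeq on GRCm38.p6, and capitals mark matches to the motifs searched on both strands: TATAA for the TATA box, CCAAT for the box of that name and GGGCGG for the GC box. *Tnfsf11* lies on the minus strand of chromosome 14 from 78277445 to 78308043, and its window is chr14:78308044-78308293. The *Csf1* locus lies on the minus strand of chromosome 3 from 107741048 to 107760469, and its window is chr3:107760470-107760719.
Tnfsf11: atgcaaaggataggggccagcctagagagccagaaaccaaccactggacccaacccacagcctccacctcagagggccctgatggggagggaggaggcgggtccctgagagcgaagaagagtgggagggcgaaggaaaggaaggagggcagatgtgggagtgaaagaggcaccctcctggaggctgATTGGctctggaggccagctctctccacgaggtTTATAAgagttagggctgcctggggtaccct
Csf1: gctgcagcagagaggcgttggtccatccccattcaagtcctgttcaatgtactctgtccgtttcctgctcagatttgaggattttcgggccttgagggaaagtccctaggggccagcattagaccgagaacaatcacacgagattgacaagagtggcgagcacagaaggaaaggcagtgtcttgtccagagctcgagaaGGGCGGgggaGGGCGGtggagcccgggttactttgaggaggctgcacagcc

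The *Tnfsf11* window held TATAA from 30 to 26 bases before the start, overlapping by its letters a match on the other strand, and ATTGG, the reverse of CCAAT, from 64 to 60 bases before it. The *Csf1* window held neither of these and had GGGCGG at 2 places, 51 to 46 and 41 to 36 bases before the start. Among 32851 mouse promoter windows of this length, 22.8% held the TATA letters, 33.8% the CCAAT letters and 32.7% the GC box letters. *Tnfrsf11a* was the only other gene with an entry, 3 of 6 in all, and its window reaches into the gene's span in RefSeq, so it is not described. The GC content was 60.4% for *Tnfsf11* and 56.4% for *Csf1*, beside a median of 52.4% over all windows. A match is a description of letters and not of a factor bound there.

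*Tnfsf11* was the lowest of the 6 genes in every library. It measured 1.04, 0.215 and 0.372 FPKM under the label bone and 0.529, 0.790 and 0.904 FPKM under osteoblasts. The labels overlapped, since the highest and the lowest value both belonged to bone. On its 2236-base transcript these levels stand for about 7 to 40 read pairs, fewest in bone replicate 2, and 3 pairs would give 0.0594 to 0.0989 FPKM, so the transcript was above that floor in each library but thinly sampled. The means were 0.541 ± 0.436 FPKM in bone and 0.741 ± 0.192 FPKM in osteoblasts (SD, n = 3), a difference of 0.21 on the log2(FPKM + 1) scale with an exact permutation p of 0.5 (two-sided). With 3 libraries a label that test cannot go below 0.1, so it could not pass 0.05 for any gene.

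*Tnfrsf11b*, on the minus strand of chromosome 15 from 54250619 to 54278484, was far above its ligand. The decoy receptor measured 19.6, 9.90 and 2.10 FPKM under the label bone and 11.3, 2.75 and 2.19 FPKM under osteoblasts. Each label thus held both high and low libraries. The 3 low values were those of the hemoglobin-rich libraries, and the lowest of the other 3 was 3.60-fold above the highest of them. By label the means were 10.5 ± 8.76 FPKM in bone and 5.40 ± 5.09 FPKM in osteoblasts (SD, n = 3), a log2 difference of -0.75 with an exact permutation p of 0.7.

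Within a library the ratio of *Tnfsf11* to *Tnfrsf11b* does not depend on the depth or on the share of unnamed features. It was 0.0529, 0.0218 and 0.177 under the label bone and 0.0470, 0.287 and 0.413 under osteoblasts. Osteoprotegerin transcript therefore exceeded RANKL transcript in each library, by 46.0-fold at most in bone replicate 2 and by 2.42-fold at least in osteoblasts replicate 3. The ratio spanned 19.0-fold, with the hemoglobin-rich libraries at 0.177 to 0.413 and the other 3 at 0.0218 to 0.0529. The decoy receptor varied 9.31-fold over the libraries and *Tnfsf11* 4.81-fold. Between the labels, the log2 ratio (with 0.1 FPKM added to both) was -3.77 ± 1.41 in bone and -2.35 ± 1.60 in osteoblasts (SD, n = 3), a difference of 1.43 with an exact permutation p of 0.3.

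**Figure D1:**
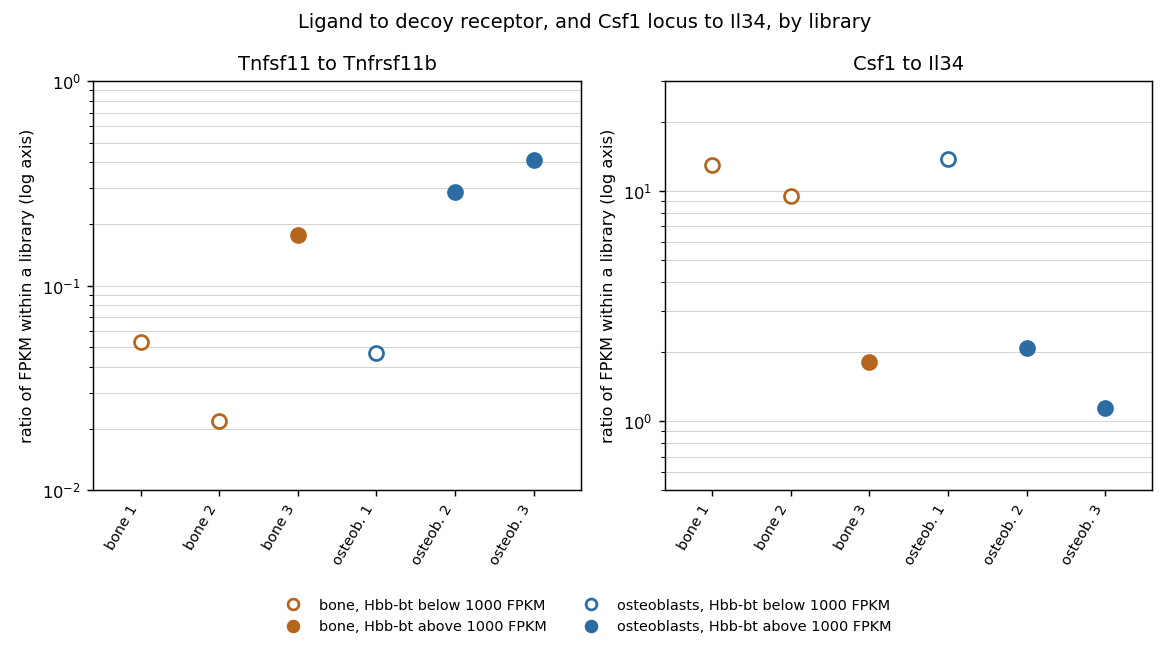
Ratio of FPKM within each library, on log axes, for *Tnfsf11* to *Tnfrsf11b* (left) and the *Csf1* locus to *Il34* (right), with 1 point per library coloured by deposited label and filled where *Hbb-bt* is above 1000 FPKM. The filled points sit at 0.177 to 0.413 on the left and at 1.13 to 2.08 on the right, and the open points at 0.0218 to 0.0529 and 9.45 to 13.8.

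*Tnfrsf11a*, which encodes the receptor RANK, lies on the plus strand of chromosome 1 from 105780718 to 105847981. It measured 20.3, 11.7 and 1.80 FPKM under the label bone and 13.9, 1.26 and 2.28 FPKM under osteoblasts. It was again high and low under both labels, and it varied 16.1-fold. Among the genes with at least 1 FPKM in a library, it stood above 76.0 to 77.1% of them in the hemoglobin-poor libraries, and above 5.77 to 21.3% of them in the hemoglobin-rich libraries. By label the means were 11.3 ± 9.27 and 5.80 ± 7.00 FPKM (SD, n = 3), a log2 difference of -0.93 with an exact permutation p of 0.5.

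The *Csf1* locus was the most abundant ligand. It measured 74.0, 35.7 and 6.62 FPKM under the label bone and 70.9, 9.63 and 5.12 FPKM under osteoblasts. The same 3 libraries were low as for *Tnfrsf11b* and *Tnfrsf11a*, and the lowest of the other 3 was 3.71-fold above the highest of them. By label the means were 38.8 ± 33.8 and 28.5 ± 36.7 FPKM (SD, n = 3), a log2 difference of -0.72 with an exact permutation p of 0.7. Without osteoblasts replicate 3 the log2 difference was 0.0034, with an exact permutation p of 1. The feature pools several transcripts, and its coverage per FPKM was 0.348 to 0.522 of the library's most frequent ratio, which is 1 for a feature of 1 transcript. By the same measure *Il34* was at 0.255 to 0.358 and *Tnfrsf11a* at 0.575 to 0.753.

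*Il34*, on the minus strand of chromosome 8 from 110741829 to 110805924, varied least of the 6 in FPKM as deposited. The second CSF1R ligand measured 5.71, 3.78 and 3.68 FPKM under the label bone and 5.13, 4.63 and 4.51 FPKM under osteoblasts. Its highest value was 1.55-fold its lowest, and its libraries overlapped both by label and by hemoglobin content. It stood above 36.4 to 43.5% of the genes with at least 1 FPKM. The means were 4.39 ± 1.14 and 4.76 ± 0.328 FPKM (SD, n = 3), a log2 difference of 0.11 with an exact permutation p of 0.6, whose direction turned to -0.041 with the named genes rescaled to one sum and to -0.0063 with quantile normalization.

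The balance of the 2 CSF1R ligands also differed from library to library. The *Csf1* locus was at 13.0, 9.45 and 1.80 times *Il34* under the label bone and at 13.8, 2.08 and 1.13 times under osteoblasts. It exceeded *Il34* in each, but came close to it in the hemoglobin-rich libraries. By label the log2 ratio was 2.57 ± 1.53 in bone and 1.66 ± 1.87 in osteoblasts (SD, n = 3), a difference of -0.91 with an exact permutation p of 0.7. With coverage in place of FPKM, which lowers *Il34* more than the *Csf1* locus, that difference was -0.88.

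*Csf1r*, on the plus strand of chromosome 18 from 61105572 to 61132149, was the most abundant of the 6 genes in each library. The shared receptor measured 363, 179 and 46.5 FPKM under the label bone and 196, 51.7 and 44.0 FPKM under osteoblasts. It was lower in the hemoglobin-rich libraries, by 3.45-fold between the nearest values, and even there it stood above 91.4 to 92.4% of the genes with at least 1 FPKM. By label the means were 196 ± 159 and 97.2 ± 85.5 FPKM (SD, n = 3), a log2 difference of -0.91 with an exact permutation p of 0.6. The end of its feature overlaps *Hmgxb3* on the other strand, and the library kit does not mark strand, so reads of the 2 genes there cannot be told apart.

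**Figure D2:**
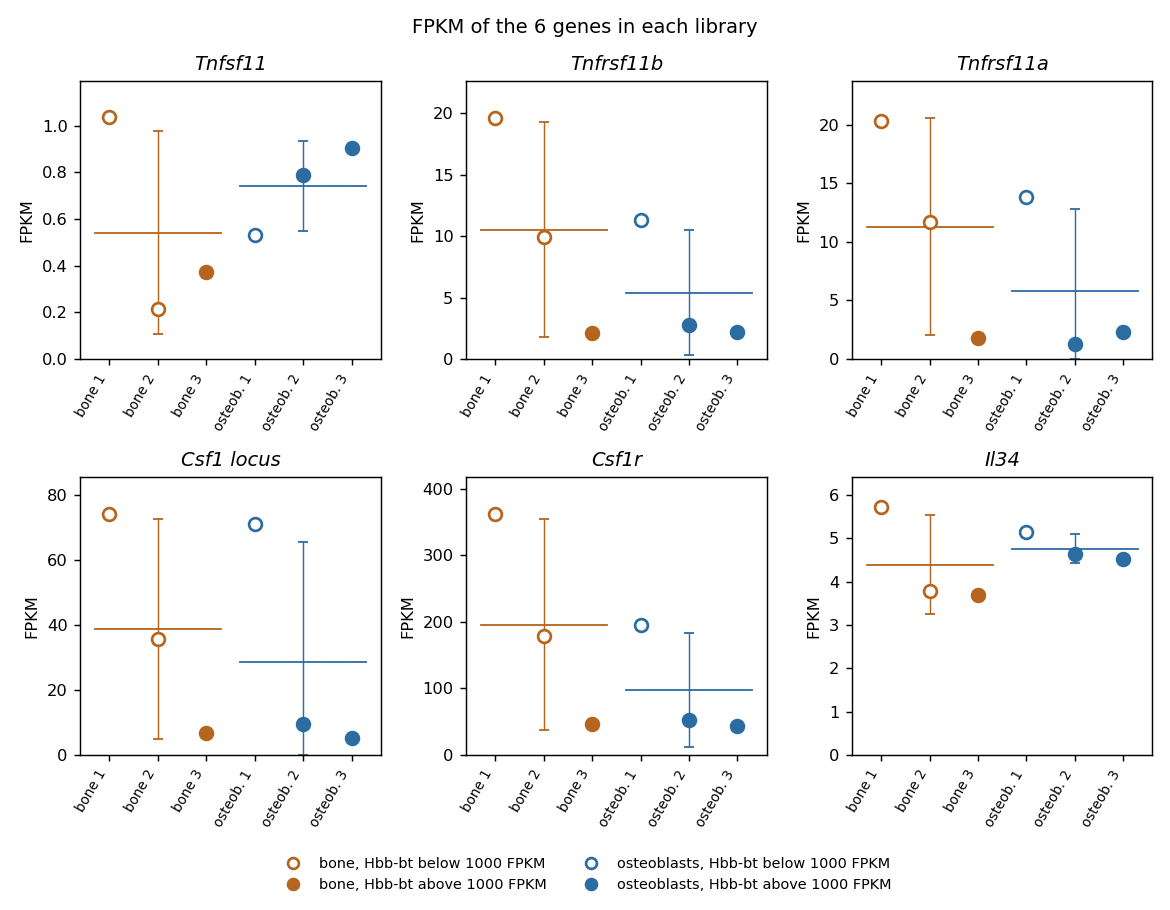
FPKM of the 6 genes in each library, with 1 panel per gene and its own axis from 0; lines are the means of 3 libraries per label and bars the SD, drawn down to 0 at most. Filled points, the libraries with *Hbb-bt* above 1000 FPKM, are the 3 lowest for *Tnfrsf11b*, *Tnfrsf11a*, the *Csf1* locus and *Csf1r*, and are mixed with the open points for *Tnfsf11* and *Il34*.

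Across all genes, the labels were compared with limma on log2(FPKM + 1). Of the 6 genes, 4 had a feature name and a mean of at least 1 FPKM and entered that fit; *Tnfsf11* was below the minimum and the *Csf1* locus has no name. None of the 4 was called, against a background of 0% called (0 of 12112 genes at an adjusted p under 0.05, and 17 at an unadjusted p under 0.05). *Tnfrsf11b* differed by -0.75 (SE 0.77, 95% interval -2.49 to 1.00), *Tnfrsf11a* by -0.93 (SE 0.89, -2.94 to 1.08), *Csf1r* by -0.91 (SE 0.87, -2.88 to 1.06) and *Il34* by 0.11 (SE 0.39, -0.77 to 1.00), each with a Benjamini-Hochberg adjusted limma p of 0.999. With a lower minimum, *Tnfsf11* differed by 0.21 (SE 0.31, -0.48 to 0.89), and with the locus added *Csf1* differed by -0.72 (SE 1.05, -3.11 to 1.66). Each of these intervals holds 0, and those of *Tnfsf11* and *Il34* were the narrowest. Without bone replicate 3 the count over all genes came to 77 and without osteoblasts replicate 1 to 300, with none of the 4 genes of the fit among the calls, and their smallest adjusted limma p was then 0.209 and 0.172, both for *Tnfrsf11a*. No gene of the 6 had labels that did not overlap, against 0.479% of all genes with each osteoblasts library above each bone library and 0.438% with each below.

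**Figure D3:**
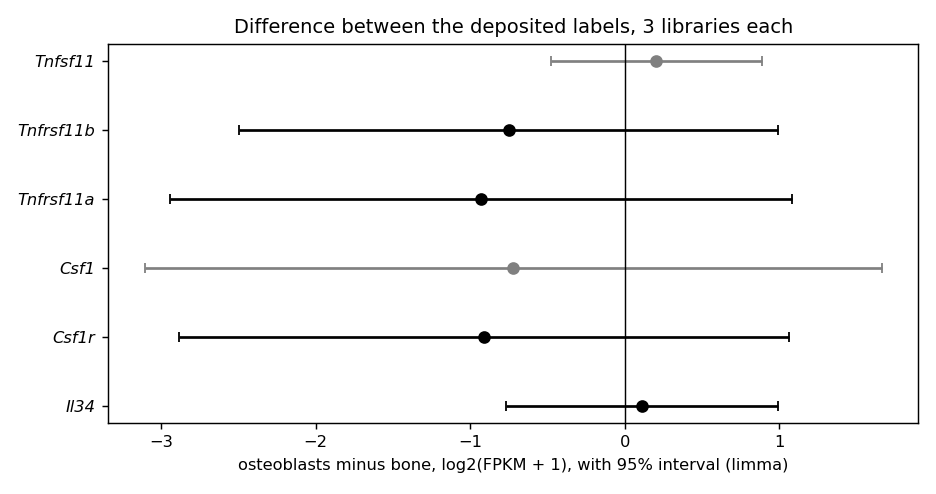
Difference between the labels for each of the 6 genes, osteoblasts minus bone on the log2(FPKM + 1) scale, with limma's 95% interval from 3 libraries a label; grey marks *Tnfsf11*, fitted with a lower minimum, and *Csf1*, fitted with its locus added. Each interval spans 0, from the narrow ones of *Tnfsf11* and *Il34* to that of the *Csf1* locus at -3.11 to 1.66.

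Set out by hemoglobin content instead, as a description with no test, 3 of the 4 genes of the fit (*Tnfrsf11b*, *Tnfrsf11a* and *Csf1r*), and the *Csf1* locus beside them, were lower in each hemoglobin-rich library than in each of the other 3. Over all 12112 genes, 16.9% were lower in this sense and 38.4% higher. These shares move with the scaling, and 48.6% of all genes were lower once named genes were rescaled to one sum. *Tnfrsf11b*, *Tnfrsf11a*, the *Csf1* locus and *Csf1r* were lower in each of the 6 scalings examined. *Il34* was lower with the named genes rescaled to one sum and with quantile normalization and overlapped in the other scalings, and *Tnfsf11* was lower with quantile normalization only.

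The monocyte and macrophage markers that could be read moved with *Tnfrsf11a* and *Csf1r*. Of the list of 11, *C1qc*, *Ly6c2* and *Ccr2* have no named feature and were not read. All 8 monocyte and macrophage markers tested were lower in the hemoglobin-rich libraries, beside 16.9% of all genes in FPKM as deposited. The list summed to 366 to 498 FPKM against 1370 to 2791 FPKM. *C1qa*, a complement gene of resident macrophages, was at 173 to 241 FPKM against 575 to 1156 FPKM. *Marco*, a macrophage scavenger receptor, was at 0.281 to 5.88 FPKM against 126 to 341 FPKM. Osteoblasts replicate 1, labelled as a culture of osteoblasts, had a sum of 1605 FPKM for that macrophage list. In bulk RNA, fewer cells of a type and less RNA per cell cannot be told apart, and the part of these markers in the levels of *Csf1r* and *Tnfrsf11a* was not tested.

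Osteoclast markers were not lower together with the receptors. Of 9 tested, none was lower, 3 were higher in the hemoglobin-rich libraries, a share no larger than the 38.4% of all genes, and 6 overlapped. The full list of 11 summed to 854 to 955 FPKM against 108 to 438 FPKM. Highest in mean level within it were *Acp5* and *Mmp9*, both among the higher genes, so the sum leans on them. *Acp5*, the tartrate-resistant acid phosphatase of osteoclasts, was at 325 to 342 FPKM against 14.9 to 111 FPKM, and *Itgb3*, the integrin that holds osteoclasts to bone, at 52.6 to 73.8 FPKM against 2.62 to 9.97 FPKM. *Ctsk*, their main collagen-degrading protease, overlapped at 116 to 149 FPKM against 29.5 to 137 FPKM. The libraries with less *Tnfrsf11a* and *Csf1r* thus had more *Acp5*, *Mmp9* and *Itgb3*, while the other 6 osteoclast markers tested overlapped. Neutrophil markers were higher in the same libraries, and the part of cells other than osteoclasts in these 3 genes was not tested.

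Markers of the cells that make the ligands were mixed as well. Of 7 osteoblast markers tested, *Alpl* and *Ibsp* were lower in the hemoglobin-rich libraries and *Bglap2*, an osteocalcin gene of mature osteoblasts, was higher, at 1641 to 1959 FPKM against 264 to 513 FPKM, while the summed level overlapped at 5566 to 6599 against 5258 to 8488 FPKM. Fibroblast markers summed to 372 to 576 FPKM against 1224 to 2158 FPKM, with *Col3a1*, *Pdgfrb* and *Fn1* lower and *Dcn* higher. The 4 chondrocyte markers tested were higher, where 38.4% of all genes were higher and 16.9% lower. These markers summed to 142 to 278 FPKM against 3.51 to 13.7 FPKM. The 3 T cell markers tested were also higher, at a sum of 28.2 to 37.0 FPKM for the list against 0 to 0.122 FPKM. The part of these cells in the levels of *Tnfsf11*, *Tnfrsf11b* and the *Csf1* locus was not tested.

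**Figure D4:**
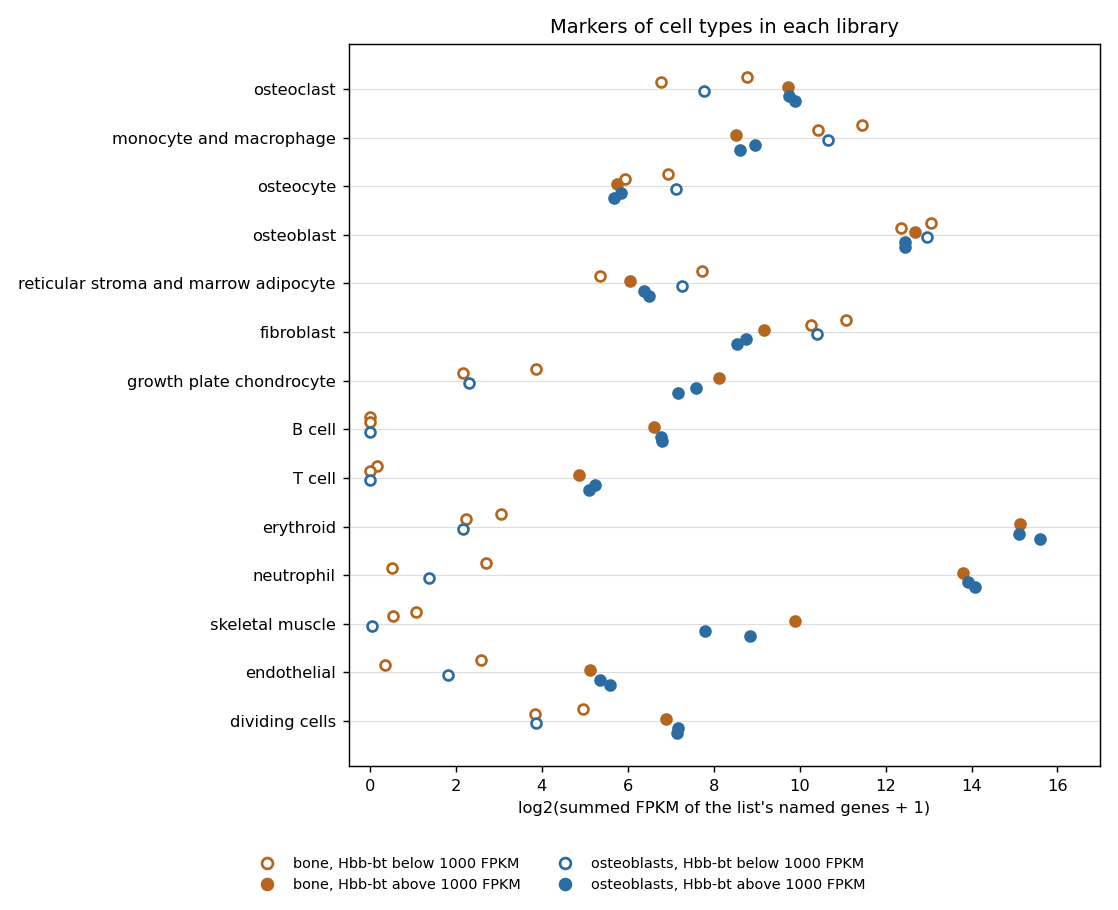
Summed FPKM of 14 lists of cell type markers, plotted as log2(sum + 1), with 6 points a list, one for each library, coloured by deposited label and filled where *Hbb-bt* is above 1000 FPKM. Filled points lie to the left for monocyte and macrophage, osteocyte and fibroblast markers, and overlap with open ones for osteoblast and stroma markers. They lie to the right for osteoclast, chondrocyte, B cell, T cell, erythroid, neutrophil, muscle, endothelial and dividing cell markers. The erythroid list holds *Hbb-bt* itself, so its place was set by the fill. The osteocyte sums, 50.5 to 56.3 FPKM against 59.8 to 139 FPKM, lean on *Dmp1*. Of 5 osteocyte markers tested, 1 was lower, 1 was higher and 3 overlapped.

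The wider pathway was read from 7 lists of 65 genes, of which 54 have a named feature and 51 entered the fit. *Nfatc1*, *Bcl6*, *Traf3*, *Nfkb2*, *Fcer1g*, *Trem2*, *Syk*, *Sdc1*, *Pth1r*, *Il6st* and *Lifr* have no named feature and were not read. Of the 51 genes, none was called between the labels, and none passed at an unadjusted p under 0.05 (limma). Their median log2 difference was 0.08, beside 0.12 for all genes tested. By hemoglobin content, 9 were lower in each hemoglobin-rich library, 12 were higher and 30 overlapped. As shares these are 17.6% lower, 23.5% higher and 58.8% overlapping, beside 16.9%, 38.4% and 44.7% of all genes tested.

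Among the adaptors of RANK and the NF-kB machinery, 10 of 13 overlapped. *Traf6*, the adaptor that links RANK to NF-kB, was at 4.52 to 4.98 FPKM in the hemoglobin-rich libraries and at 3.20 to 6.20 FPKM in the others. *Nfkbia*, the inhibitor of NF-kB and the most abundant of the list, was at 26.7 to 37.0 against 17.2 to 37.5 FPKM. *Ikbkg*, the regulatory subunit of the kinase that releases NF-kB, was the 1 lower gene, at 6.15 to 6.64 against 16.5 to 27.3 FPKM, and *Traf2* and *Traf5* were higher.

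Of 7 osteoclastogenic transcription factors tested, *Fos*, *Jun* and *Mitf* were lower and *Spi1* and *Irf8* higher. *Fos*, without which osteoclasts do not form, was at 2.88 to 3.53 against 6.51 to 12.0 FPKM. *Spi1*, the myeloid factor PU.1, was at 48.4 to 50.8 against 18.7 to 38.6 FPKM, and *Irf8*, which restrains osteoclast formation, at 38.6 to 44.3 against 10.9 to 20.1 FPKM. In the ITAM co-stimulation list, *Oscar*, *Plcg2* and *Btk* were higher and 3 of 6 overlapped, among them *Tyrobp*, the adaptor DAP12, at 343 to 368 against 194 to 429 FPKM.

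Genes that act on the ligands were few. Of 4 enzymes tested that shed RANKL or CSF1 from the membrane, *Mmp14* (16.5 to 28.2 against 41.2 to 66.0 FPKM) and *Adam17* (4.12 to 10.4 against 12.7 to 19.6 FPKM) were lower, *Adam19* was higher and *Adam10* overlapped. Of 3 other partners of RANKL and osteoprotegerin tested, *Tnfrsf10b*, a receptor for the other ligand of osteoprotegerin, was lower at 0.575 to 0.692 against 2.87 to 5.64 FPKM. *Lgr4*, a further receptor of RANKL, was at 1.82 to 2.55 against 1.64 to 4.40 FPKM. Among hormone and cytokine receptors that act upstream of *Tnfsf11*, 7 of 9 overlapped, including the vitamin D receptor *Vdr* at 7.82 to 9.58 against 4.30 to 8.96 FPKM, while *Osmr*, the oncostatin M receptor, was lower at 1.22 to 2.83 against 6.49 to 12.5 FPKM and *Il1r1*, the interleukin 1 receptor, was higher at 3.532 to 5.20 against 1.29 to 3.526 FPKM. Among the partners of the CSF1R ligands and the signalling genes downstream of the receptor, *Ptprz1*, another receptor of IL34, was lower, *Pik3cd*, *Socs1* and *Dok2* were higher and 5 of 9 overlapped.

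**Figure D5:**
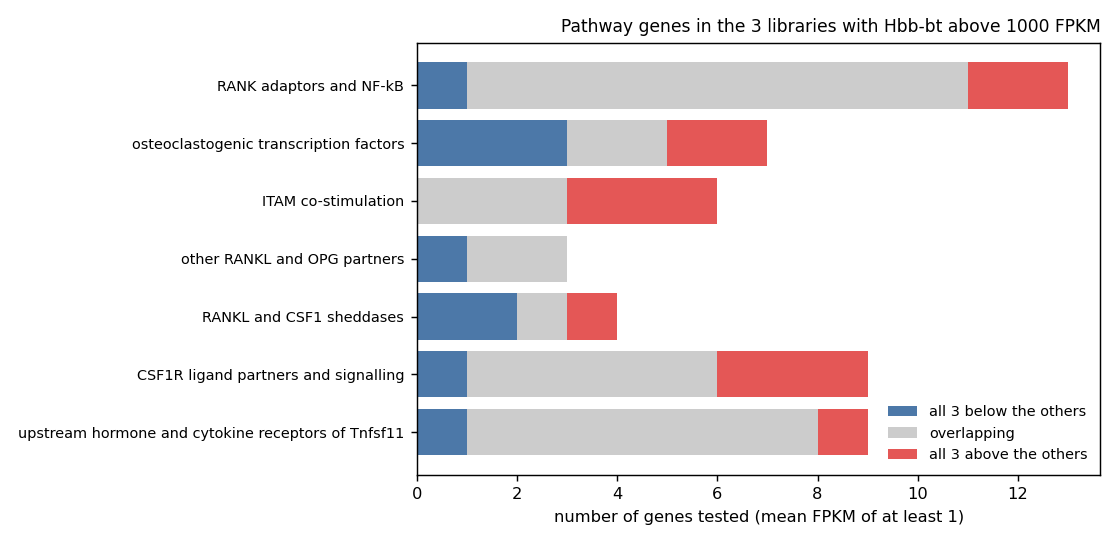
Number of tested genes of each pathway list that were lower (blue), overlapping (grey) or higher (red) in the 3 libraries with *Hbb-bt* above 1000 FPKM than in the other 3. Overlap holds 30 of the 51 genes (58.8%, beside 44.7% of all genes tested), and the ITAM list alone has no lower gene among the lists with a higher one.

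The genes whose profile over the 6 libraries lay nearest to each gene were found by the root mean square difference of log2(FPKM + 1) after centring each gene. For *Tnfrsf11b* these were *Lpar1* (0.0649), *Gm38317* and *Dapk1* (0.0709), for *Tnfrsf11a* *Ms4a6c* (0.0999), *Maf* and *Nectin3* (0.151), and for *Csf1r* *Lgmn* (0.0878), *Arxes2* and *Nrp1* (0.0987). The *Csf1* locus had no neighbour as close, with *Phlda3* at 0.228, *Fstl1* and *Folr2*. *Il34* lay nearest to *Camkk1*, *Tprkb* and *Fam206a*. Of the 6 genes, *Csf1r* and *Tnfrsf11b* were the closest pair at 0.118, which made *Tnfrsf11b* the gene in place 7 of 12112 from *Csf1r*, and *Tnfrsf11b*, *Tnfrsf11a*, the *Csf1* locus and *Csf1r* were in places 10459 to 11402 from *Il34*. *Tnfsf11*, below the minimum of 1 FPKM and so given no place, was at 0.167 from *Il34* and at 1.10 to 1.53 from the other 4, on a scale where a low level leaves little room to vary. All genes here share the same 6 libraries and their scaling, so a small difference is a description of these libraries.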

How the data were processed

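RNA of 3 libraries labelled bone and 3 labelled osteoblasts was analysed. By the study's methods, the authors made libraries with a TruSeq RNA v2 kit and aligned paired reads of 75 bases to GRCm38. The submitters' processing notes name HISAT2 2.0.5, SAMtools 1.7 and StringTie 1.3.3. The authors deposited for each feature its coverage, its FPKM, scaled to all aligned reads, and its TPM, the same values rescaled to one sum. The deposited files hold no read counts, so no interval for a single value can be given. Depth was read from the mode of coverage divided by FPKM in each library, and the floor of 3 pairs covers counting error only. Each library keeps its deposited label. The p-values set the difference between the labels against the spread between libraries, which holds the split by hemoglobin content. In the main tests the libraries are treated as independent, though the methods name 3 mice.

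The members and lists were chosen with earlier results of these data known. Values of features with one name were summed, and *Csf1* was taken from the feature with the RefSeq position. Genes named are the members, *Hbb-bt*, the list genes highest in mean FPKM, cell type markers and the 3 nearest profiles of each member. Other list genes named were singled out after their values were seen. Single genes and ratios were compared with exact permutation tests, two-sided, and genes averaging 1 FPKM or more with limma 3.58.1 in R 4.3.3 (trend, Benjamini-Hochberg adjustment, threshold 0.05), tested on simulated data first. Transcript lengths are from GENCODE on NCBIM37, and promoters and names from RefSeq on GRCm38.p6, with no coordinates converted. Alternatives were TPM, 3 other scalings, pseudocounts of 0.1 and 0.01, other minimums, no trend, the replicate block and leaving out each library. Coverage in place of FPKM and adding the *Csf1* locus to the table were chosen after seeing the data.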

Additional observations from a re-analysis of the deposited data

Results flagged for a closer look

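Unnamed features lying wholly within the span of a gene of the group hold signal that the comparisons do not use, and those above 3 estimated read pairs are given. Within *Tnfrsf11a*, 12 unnamed features of 4429 bases together held an estimated 98.4, 45.5 and 38.6 read pairs under the label bone and 27.2, 13.7 and 21.8 pairs under osteoblasts. These pairs are not scaled to depth. In summed FPKM the features were at 14.2, 6.63 and 6.02 under bone and at 4.75, 1.93 and 3.08 under osteoblasts. Each bone library was thus above each osteoblasts library, which was not the case for *Tnfrsf11a* itself. Among the 12112 named genes tested 0.438% ran this way, and the share among unnamed features was not worked out. Within *Tnfrsf11b*, 1 unnamed feature of 425 bases held 3.77 pairs in bone replicate 3 and 7.55 pairs in osteoblasts replicate 2, both hemoglobin-rich, and fewer than 3 in the other 4. Whether these features belong to the genes around them was not tested.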

How the results depend on the processing

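The count of genes called by limma was 0 under the scalings, pseudocounts, minimums and trend settings run. Leaving out each library in turn gave 0 to 300 calls, with 77 without bone replicate 3 (66 higher and 11 lower in osteoblasts) and 300 without osteoblasts replicate 1 (262 higher and 38 lower). The replicate block gave 49 calls (46 higher, 3 lower). In their deviations from the label mean, same-numbered libraries correlated with r = 0.84, -0.75 and 0.83 over 12112 genes. Across all pairs of a bone and an osteoblasts library, r was positive where hemoglobin content was alike and negative where it was not. These values therefore cannot show whether same-numbered libraries share a mouse, which was not tested. No gene of the 6 was called in the fits it entered. *Tnfsf11* entered only those with a lower or no minimum and the *Csf1* locus only that with the locus added, and the other 4 entered each fit. Of 114 alternatives for the 8 single values, 111 kept their direction, 3 turned it and 0 passed the threshold, which 3 against 3 libraries cannot reach. The difference of *Il34* turned to -0.041 with named genes rescaled to one sum and to -0.0063 with quantile normalization. The difference of the *Csf1* locus ran from -1.77 to 0.0034 over the fits that left out 1 library and turned only without osteoblasts replicate 3. The cause was not tested. The median difference of all genes was 0.12 as deposited, -0.032 with named genes rescaled to one sum and 0.0048 with quantile normalization. Depth limits *Tnfsf11* most, at about 7 read pairs in bone replicate 2.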
